A study of Mus musculus with 4 samples.

Results

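The Rab GTPase genes of C22 cells were examined for their levels and for their response to NE, that is norepinephrine, which sympathetic fibres release. A gene was counted as a member when its symbol in the deposited count table was Rab followed by a number and at most 1 letter and 1 further digit, a rule that used no measured value. It selected 59 of the 22063 listed genes, and leaves out Rab-like genes and proteins named for binding a Rab. Of the 59 members, 47 had enough counts to be tested, 6 had counts but too few for a test, and 6 had 0 counts in every library. RNA sequencing was done on 4 libraries of C22, an immortalized mouse line labelled as wild-type bronchial Club cells, grown in medium with low serum. Treatment was 10 µM NE in 2 libraries and vehicle alone in the other 2, each over 3 h; the series asks how nerve fibres act on the airway epithelium.

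Total counts were 15657173 and 18491334 in the NE libraries and 14820258 and 14783176 in the vehicle libraries, so the second NE library was the deepest. The labels do not say that replicates were separate cultures, so the tests measure the spread between these libraries, which may be technical. Of 7 Club cell markers, 3 had 0 counts in all libraries (Scgb3a2, Cyp2f2 and Scgb3a1) and Scgb1a1 had 2 counts in total, whereas Aldh1a1 and Krt8 were abundant. The epithelial marker Epcam was also at 0, and Cdh1 had 18 counts in total, 13 of them in the first vehicle library. The epithelial list also held Krt18 and Krt19, which were abundant, with 38758 and 9939 counts in total. The labelled cell type is thus not borne out by its secretory markers, and the cells are called C22 cells here. Summed over 6 mesenchymal markers, led by Vim and Col1a1 and with Thy1 at 0, the level was 3890 and 3928 CPM (counts per 1000000 counts of the library, with TMM to correct for composition) in NE libraries and 4591 and 3945 CPM in vehicle libraries. Leukocyte, endothelial, alveolar type 2 and neuronal marker sums, of 3 genes each, stayed at or below 5.10 CPM in every library. No marker of the 7 lists was called by edgeR, against 1.57% of all tested genes. Markers with too few counts were not in the test and could not be called. Among them were Scgb1a1, Epcam, Cdh1 and every alveolar type 2 and neuronal marker. A part of these cell types in the Rab values was not tested.

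Rab proteins are small GTPases of the Ras superfamily that act as switches of membrane traffic. In the GTP-bound form a Rab sits on the membrane of one compartment by its lipid tail and recruits effectors, such as motors, tethers and sorting proteins; GEFs (guanine nucleotide exchange factors) load GTP, GAPs (GTPase-activating proteins) speed its hydrolysis, and GDIs (GDP dissociation inhibitors) carry the inactive form through the cytosol. Each compartment has its own set, but RNA levels do not measure transport, which was not examined here. In secretory airway epithelium the family is known for apical recycling and for the release of granules.

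Within C22 cells the level of Rab transcripts spanned several orders of magnitude, and a small number of housekeeping Rabs dominated. Levels between genes were compared as CPM per kb of the longest protein-coding GENCODE transcript, a scale that depends on that transcript being the one in use. Rab7, the Rab of late endosomes and their fusion with lysosomes, was first, at 157 and 162 CPM per kb in NE libraries and 161 and 155 CPM per kb in vehicle libraries. Next was Rab5c, which acts in the fusion of early endosomes, at 118 and 126 CPM per kb in NE libraries and 120 and 117 CPM per kb in vehicle libraries. Rab2a, of the route between endoplasmic reticulum (ER) and Golgi, had nearly the same level, with 114 and 120 CPM per kb in NE libraries and 113 and 116 CPM per kb in vehicle libraries. The ranges of Rab5c and Rab2a over the 4 libraries overlapped, although Rab5c was the higher of the pair within each library. The range of Rab7 lay above both.

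Rab1a, needed for transport from the ER to the Golgi, followed with 106 and 111 CPM per kb in NE libraries and 95.7 and 102 CPM per kb in vehicle libraries. Rab14, which works between the Golgi and endosomes, had 90.7 and 95.8 CPM per kb in NE libraries and 83.4 and 86.6 CPM per kb in vehicle libraries. For Rab1b, the close relative of Rab1a, it was 80.8 and 87.1 CPM per kb in NE libraries and 78.8 and 75.3 CPM per kb in vehicle libraries. The range of Rab14 touched those of Rab1a above it and Rab1b below it. Rab6a, of retrograde Golgi traffic, and Rab10, of exocytosis and transporter insertion, completed the first 8 with means over the 4 libraries of 52.4 and 49.8 CPM per kb, and their ranges overlapped as well. Of the 52 neighbouring pairs in the order of the 53 members with counts, 41 had overlapping ranges, 4 of them among the 7 pairs of the first 8. Without division by length, 7 of these 8 were again among the 8 highest. The 5 members with the most CPM took 38.5% of all Rab reads and the first 20 took 84.4%.

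**Figure D1:**
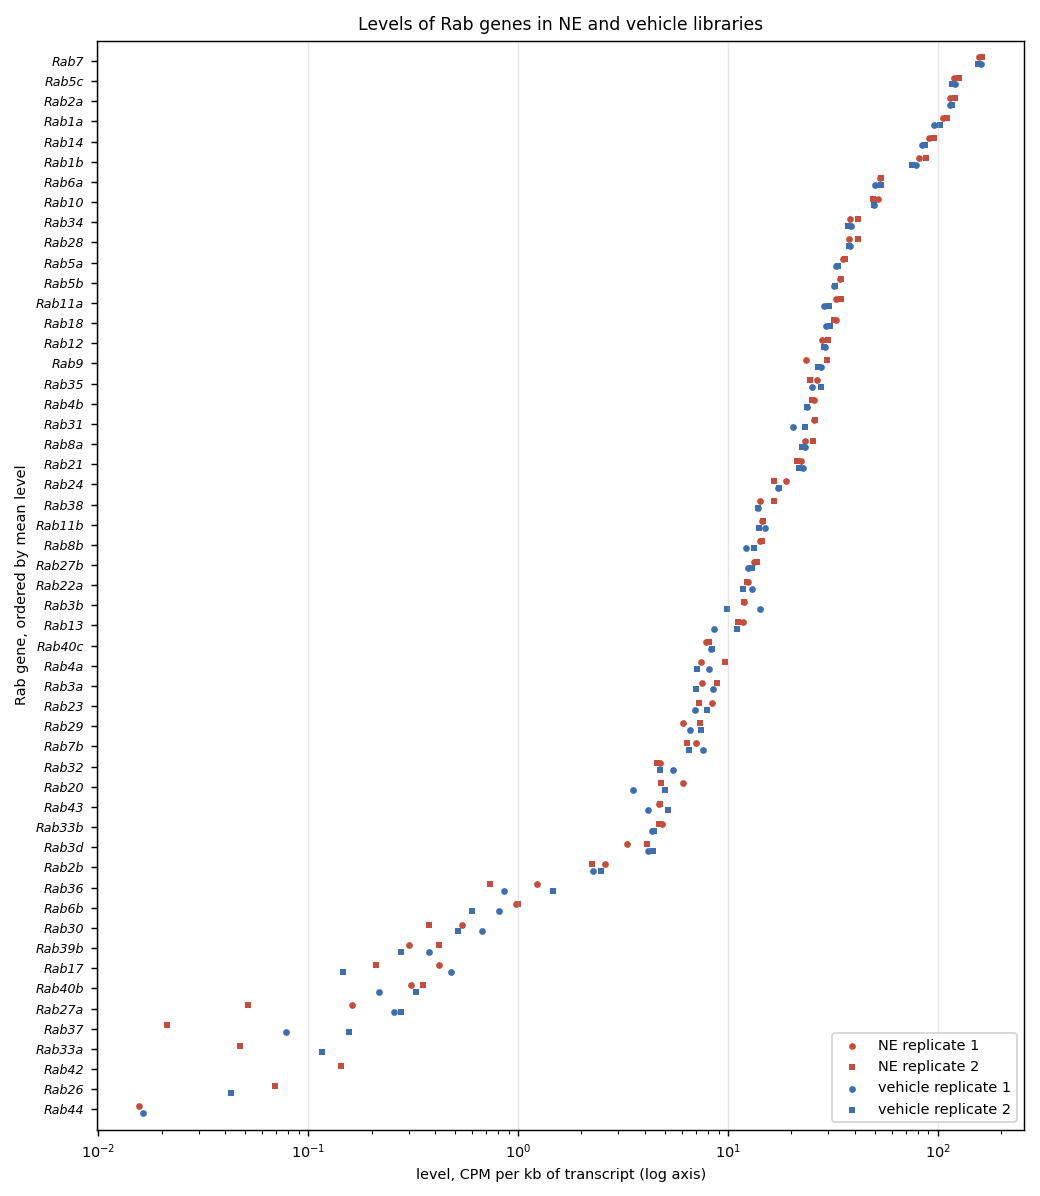
Level of each of the 53 Rab genes with counts, in CPM per kb of transcript on a log axis, with 1 point per library (red NE, blue vehicle; circle replicate 1, square replicate 2). A library with 0 counts has no point. Rab7 is highest, near 160 CPM per kb, most members lie between 2 and 60, and the points of NE and vehicle libraries lie close together for all but the low members.

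By route, the 16 members assigned to the ER and Golgi together held 1206 and 1243 CPM in NE libraries and 1134 and 1172 CPM in vehicle libraries. The 8 early endosome members held 713.1 and 726 CPM in NE libraries and 687.9 and 684.5 CPM in vehicle libraries. Those of recycling, also 8, held 558.9 and 577.9 CPM in NE libraries and 525.9 and 538.6 CPM in vehicle libraries. Exocytosis and secretory granules, with 13 members, summed to 526.8 and 535.9 CPM in NE libraries and 512.8 and 506.1 CPM in vehicle libraries. For these 4 routes both NE libraries were above both vehicle libraries. Of single tested genes 24.6% had that order, a share that does not apply to sums. The 2 cilium members had it too, with 100.5 and 101.8 CPM in NE libraries and 94.4 and 98.4 CPM in vehicle libraries. Sums of ubiquitin ligase adaptors were lower in NE, and those of lysosome-related organelles overlapped. The 6 members of late endosomes, lysosomes and autophagy held 484 and 502.6 CPM in NE libraries and 501.6 and 482.9 CPM in vehicle libraries, so the groups overlapped.

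The 6 with 0 counts were Rab25, a relative of Rab11 found in epithelia, Rab3c, of neuronal secretion, Rab15, Rab19, Rab9b and Rab39. In a single library a count of 0 allows up to between 0.164 and 0.202 CPM, which covers counting error only. Rab37, linked to regulated secretion, had 0 and 1 counts in NE libraries and 3 and 6 counts in vehicle libraries. Rab26, of secretory granules, and Rab44, of immune cell granules, had 3 and 2 counts over the 4 libraries, and Rab33a and Rab42 had 3 and 2. Rab40b, an adaptor of ubiquitin ligases, had the most of those not tested, with 9 and 12 counts in NE libraries and 6 and 9 in vehicle libraries. Rab17, known from polarised epithelial cells, could just be tested and had 12 and 7 counts in NE libraries and 13 and 4 counts in vehicle libraries.

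Among close relatives one member usually carried most of the transcripts. Per kb, Rab27b made up 98.8% and 99.6% of the pair with Rab27a in NE libraries and 98% and 97.9% in vehicle libraries. Both are known for docking secretory and lysosome-related granules at the plasma membrane, so in C22 cells that pair was represented almost wholly by Rab27b. Rab2a took 97.8% and 98.2% of its pair with Rab2b in NE libraries and 98% and 97.9% in vehicle libraries. Rab6a was at 98.2% in both NE libraries and at 98.4% and 98.9% in vehicle libraries, against Rab6b, which is known mainly from neurons. Rab7 held 95.7% and 96.2% of the pair with Rab7b in NE libraries and 95.5% and 96% in vehicle libraries.

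Other families were shared more evenly. In the Rab5 family, Rab5c took 63.1% and 64.2% in NE libraries and 65% and 64% in vehicle libraries, with the rest split between Rab5a and Rab5b. Of Rab11a, Rab11b and Rab25, the recycling endosome Rabs, Rab11a took 69.2% and 70.1% in NE libraries and 65.7% and 68.3% in vehicle libraries, Rab11b took the remainder and Rab25 none. By counts, without division by length, the order was the other way, with Rab11b at 53.8% and 52.8% in NE libraries and 57.7% and 54.8% in vehicle libraries. The Rab3 family, of regulated secretion, was led by Rab3b, with 52.4% and 48% in NE libraries and 53.1% and 46.4% in vehicle libraries, ahead of Rab3a. Rab3d, the form of exocrine granules, took 14.6% and 16.4% in NE libraries and 15.4% and 20.6% in vehicle libraries. By counts Rab3d was ahead of Rab3a, at 20% and 22.9% in NE libraries and 21% and 28.1% in vehicle libraries. Rab3a then held 18.2% and 19.8% in NE libraries and 17.1% and 17.9% in vehicle libraries. Rab38, which with Rab32 serves lysosome-related organelles, took 75% and 78.2% of that pair in NE libraries and 71.6% and 74.6% in vehicle libraries.

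The values of some members are uncertain because their exons overlap another gene. In the GENCODE annotation of GRCm38, an older build than that of the counts, 4 members shared over 40% of the 50-base stretches of their transcript with another gene. They were Rab43, at 90.4% with the readthrough model Gm45140, Rab4b, at 80.3% with Gm21983, Rab2b, at 74.2% with Tox4 and Gm43766, and Rab24, at 43.5% with Prelid1. Rab6a shared 22.3%, with Mrpl48 on the opposite strand, Rab20 22.9% and Rab33b 20.8%. Rab7 shared 16.2% with the pseudogene Rab7-ps1 and the overlapping Gm5577, and Rab11b 14%, with Rab11b-ps2 among others. Exons of Rab5a and Rab3a overlap those of Pp2d1 and Mpv17l2.

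Promoters of the family could be looked up in RefSeq (build GRCm38.p6) for 48 of the 59 members. Elevation of cAMP below beta-adrenergic receptors is known to act on genes through the CRE, the binding site of CREB, so the 250 bases before and 50 after the start were searched on both strands. The whole CRE, TGACGTCA, was found in 2 of the 60 promoter entries of the family, which is 3.33%, against 1.79% of all 32851 entries in RefSeq. Those 2 were Rab5a, which is well expressed, and Rab25, which had 0 counts. The half-site TGACG, which every whole CRE contains on both strands, was found in 43.3% of Rab entries and 20.8% of all entries, and the GC-box GGGCGG in 68.3% and 35.7%. A match is a description of the sequence only, and the set of all entries includes non-coding genes. Below are the 150 bases before the start, 5′ to 3′ on the gene's strand, for Rab31 and Rab11a, the members with the smallest p-values in the comparison that follows, and for both members with a whole CRE. Capitals mark TGACG or its reverse complement CGTCA, and the E-box CACGTG.
Rab31, chr17:65772753-65772902, minus strand: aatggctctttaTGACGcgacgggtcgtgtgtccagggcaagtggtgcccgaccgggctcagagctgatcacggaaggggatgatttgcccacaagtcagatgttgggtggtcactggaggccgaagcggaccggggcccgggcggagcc
Rab11a, chr9:64737757-64737906, minus strand: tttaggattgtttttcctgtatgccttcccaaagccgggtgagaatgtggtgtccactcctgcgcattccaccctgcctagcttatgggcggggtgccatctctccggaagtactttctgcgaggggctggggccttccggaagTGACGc
Rab5a, chr17:53479084-53479233, plus strand: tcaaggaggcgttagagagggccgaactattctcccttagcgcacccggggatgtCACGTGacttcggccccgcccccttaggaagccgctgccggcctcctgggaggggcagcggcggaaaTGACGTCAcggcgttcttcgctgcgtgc
Rab25, chr3:88548280-88548429, minus strand: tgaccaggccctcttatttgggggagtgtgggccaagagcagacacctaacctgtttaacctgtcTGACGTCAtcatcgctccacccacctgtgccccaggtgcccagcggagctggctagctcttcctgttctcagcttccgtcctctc

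The Rab5a promoter also held the CLEAR element, through which TFEB is known to act on genes of lysosomes. It was searched as the E-box in capitals with GT just before it and AC just after it. It was found in the entries of Rab5a, Rab21 and Rab24, that is in 5% of Rab entries and 0.326% of all entries. The E-box alone was found in 10% of Rab entries and 7.15% of all entries. The AP-1 site TGANTCA was found in 5% of Rab entries (Rab15, Rab34 and Rab39b) and 7.81% of all entries. The levels of Rab5a in the 2 groups are given below.

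After 3 h of NE no Rab gene was called. In the edgeR quasi-likelihood test with Benjamini-Hochberg adjustment over all 11419 genes tested, 0 of the 47 tested members had an adjusted p under 0.05, against 1.57% of all tested genes (0.342% higher and 1.23% lower in NE). DESeq2 also called 0 (15 of the 47 had no adjusted p there), against 0.657% of all genes (0.21% higher, 0.447% lower). Limma voom called 0, against 1.88% (0.438% higher, 1.44% lower). At an unadjusted p under 0.05 edgeR had 3 members higher in NE and 0 lower, against 7.48% and 9.82% of all tested genes, or 17.3% together. DESeq2 had 1, against 9.71% of all genes, and limma voom 4, against 17.7%. In bulk RNA, fewer cells of a type and less RNA per cell cannot be told apart. The 95% interval of the fold change lay inside 1.25-fold in either direction for 28 of the 47 members, and inside 1.5-fold for 40. These intervals cover the spread between these libraries, which may be technical, and do not bound the change over separate cultures.

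The signs leaned towards NE. The log2 fold change was positive for 33 of the 47 tested members and negative for 14, with a median of 0.05, against 50% positive and a median of -0.00011 over all tested genes. In 16 members both NE libraries lay above both vehicle libraries, and in 4 both lay below, against 24.6% of all tested genes in each direction, or 49.2% together. Summed over all 59 members, Rab reads relative to the library total were 3638 and 3715 CPM in NE libraries and 3533 and 3573 CPM in vehicle libraries, or 3676 ± 54.8 CPM in NE and 3553 ± 28 CPM in vehicle (SD, n = 2 each). The NE libraries were both above the vehicle libraries, by 123 CPM on average. Of single tested genes 24.6% had that order, a share that does not apply to sums. No test was run, since 2 libraries a group are too few for an exact permutation test to reach the threshold.

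**Figure D2:**
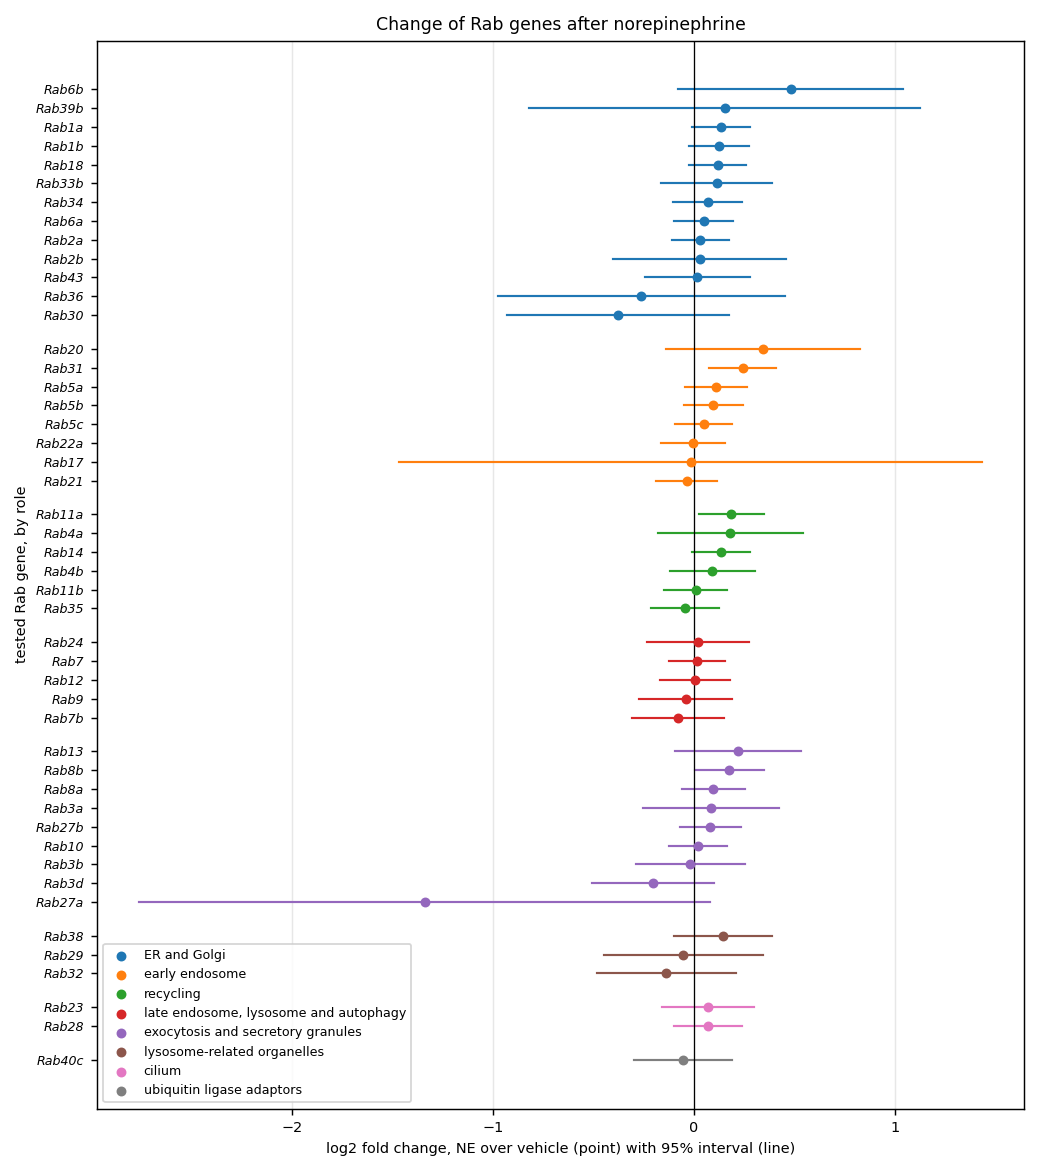
Log2 fold change of NE over vehicle (points) with its 95% interval (lines) for the 47 tested Rab genes, coloured by role and ordered by change within a role. Intervals of Rab31, Rab11a and Rab8b lie above 0 before adjustment, and all others cross 0. The widest belong to Rab27a, Rab17 and Rab39b, the members with the fewest reads.

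Rab31 had the smallest p-value of the family, followed by Rab11a. Rab31, a relative of Rab22a that acts between the Golgi and endosomes, had 88.7 and 90.4 CPM in NE libraries and 70.6 and 80.8 CPM in vehicle libraries. Both NE libraries were above both vehicle libraries, as for 24.6% of all tested genes. The vehicle libraries differed from each other more than the NE ones. Its log2 fold change was 0.24 ± 0.08 (SE; edgeR adjusted p = 0.13). The value turned on the vehicle libraries: without the second it was 0.34 (adjusted p = 0.0124, the only call of a Rab gene in any setting, where 2.68% of all genes were called higher), and without the first it was 0.15 (adjusted p = 0.495). Rab11a, the Rab of recycling endosomes, had 75.8 and 80.1 CPM in NE libraries and 67 and 70.3 CPM in vehicle libraries, without overlap (log2 fold change 0.18 ± 0.08, edgeR adjusted p = 0.226). Its relative Rab11b was at 88.1 and 89.5 CPM in NE libraries and at 91.5 and 85.3 CPM in vehicle libraries, so the groups overlapped and the log2 fold change was 0.0072 ± 0.07.

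Other recycling members were nearer 0 or less precise. Rab14 had 279 and 295 CPM in NE libraries and 257 and 267 CPM in vehicle libraries (log2 fold change 0.13 ± 0.07, edgeR adjusted p = 0.319). Again the groups did not overlap, as for 24.6% of all tested genes in this direction. Rab4a and Rab4b, of rapid recycling, had log2 fold changes of 0.18 ± 0.17 and 0.09 ± 0.10. Rab35, which also serves rapid recycling, was the only one of the 6 tested members of this role with a negative value, -0.04 ± 0.08. The median of the 6 was 0.11 and 1 of them had an unadjusted p under 0.05. Over all tested genes 50% were positive and 17.3% had such a p in either direction.

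Of the 8 early endosome members 5 were positive, against 50% of all tested genes, with a median of 0.07. The 3 forms of Rab5, the master regulators of early endosomes, had small values: Rab5a stood at 83.4 and 85 CPM in NE libraries and 77.2 and 78.9 CPM in vehicle libraries (log2 fold change 0.11 ± 0.07, edgeR adjusted p = 0.47). Rab5b was at 0.10 ± 0.07 and Rab5c at 0.05 ± 0.07. In Rab5a and Rab5b the groups did not overlap, as for 24.6% of all tested genes in this direction. In Rab5c they did. Rab20, linked to phagosomes and endosomes, had a larger and less precise value, with 8.46 and 6.67 CPM in NE libraries and 4.91 and 6.98 CPM in vehicle libraries (0.34 ± 0.23, edgeR adjusted p = 0.47). It ran between 0.11 without the first vehicle library and 0.62 without the second, and was 0.17 without the first NE library. Rab22a and Rab21, which is known for integrin uptake, were at -0.0060 ± 0.08 and -0.04 ± 0.07.

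Among the 13 tested members of the ER and Golgi 11 were positive, the median was 0.07 and 0 had an unadjusted p under 0.05. Of all tested genes 50% were positive and 17.3% had such a p in either direction. Rab1a had 299 and 313 CPM in NE libraries and 270.5 and 289 CPM in vehicle libraries (log2 fold change 0.13 ± 0.07, edgeR adjusted p = 0.334). Rab1b had 155 and 167 CPM in NE libraries and 151 and 144 CPM in vehicle libraries (0.12 ± 0.07, edgeR adjusted p = 0.386). In both ER-to-Golgi Rabs the groups did not overlap, as for 24.6% of all tested genes in this direction. Without the first vehicle library Rab1a was at 0.086, and without the second NE library Rab1b was at 0.070. Rab18, which is found on the ER and lipid droplets, had 213 and 208 CPM in NE libraries and 190.2 and 198 CPM in vehicle libraries (0.12 ± 0.07, edgeR adjusted p = 0.387). Rab2a and Rab6a lay near 0, at 0.03 ± 0.07 and 0.05 ± 0.07. Rab6b had 4.87 and 4.97 CPM in NE libraries and 4.03 and 3.02 CPM in vehicle libraries, the largest positive value of the family (0.48 ± 0.26, edgeR adjusted p = 0.371) with a 95% interval from -0.08 to 1.04. Without the second vehicle library it was at 0.29. Rab30 and Rab36, both of the Golgi, were the negative ones, at -0.38 ± 0.26 and -0.26 ± 0.34. The other members of this route, Rab34, Rab33b, Rab2b, Rab43 and Rab39b, were at 0.07, 0.11, 0.03, 0.02 and 0.15.

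**Figure D3:**
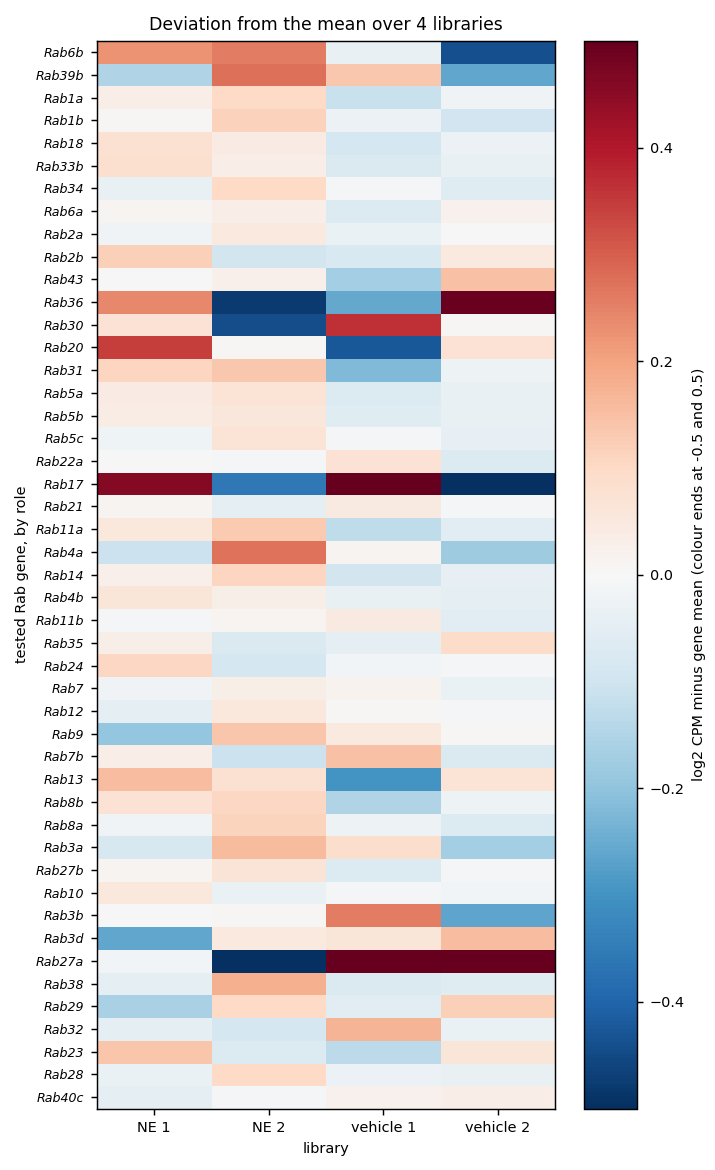
Deviation of each tested Rab gene (rows, by role) from its mean over the 4 libraries in log2 CPM (prior count 2), with red above and blue below the mean and colours ending at -0.5 and 0.5. The 2 NE libraries stand left of the 2 vehicle libraries; the median deviation over the 47 genes is 0.01 and 0.05 in NE and -0.03 in both vehicle libraries, and low genes such as Rab17 and Rab36 differ as much within a group as between groups.

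The members of late endosomes, lysosomes and autophagy had values near 0. Rab7 had 339 and 350.4 CPM in NE libraries and 347 and 335 CPM in vehicle libraries, with overlapping groups. Its log2 fold change of 0.01 ± 0.07 (edgeR adjusted p = 0.935) had a 95% interval from -0.12 to 0.15. Rab9, of transport from late endosomes to the Golgi, was at -0.04 ± 0.11, Rab12 at 0.0038 ± 0.08, Rab24, linked to autophagy, at 0.02 ± 0.12, and Rab7b at -0.08 ± 0.11. The median of the 5 tested members of this role was 0.0038, and 0 of them had groups without overlap, against 49.2% of all tested genes. Their median transcript length was 2069 nt, against 3193 nt for all tested genes. With the length trend removed 0 of the 5 were positive, the median was -0.046 and 0 had an unadjusted p under 0.05.

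Exocytic members were mixed. Rab8b, of transport to the plasma membrane, had 67.2 and 68.7 CPM in NE libraries and 57.5 and 62.8 CPM in vehicle libraries (log2 fold change 0.18 ± 0.08, edgeR adjusted p = 0.276). The Rab8b groups did not overlap, as for 24.6% of all tested genes in this direction. Its relative Rab8a had 106 and 116 CPM in NE libraries and 105 and 102 CPM in vehicle libraries (0.10 ± 0.07). Rab10 was at 182 and 171 CPM in NE libraries and 174 and 173 CPM in vehicle libraries, with overlap and a value of 0.02 ± 0.07. Rab13, which acts at tight junctions, had 16.6 and 15.7 CPM in NE libraries and 12.1 and 15.6 CPM in vehicle libraries (0.22 ± 0.15, edgeR adjusted p = 0.473), where the first vehicle library stood below the other 3. Without that library it was at 0.046, and without the second at 0.42. Rab8a was at 0.16 without the first NE library and at 0.028 without the second.

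Granule Rabs had values in both directions. Rab27b had 91.1 and 94.5 CPM in NE libraries and 86 and 89.5 CPM in vehicle libraries (log2 fold change 0.08 ± 0.07, edgeR adjusted p = 0.602). Rab27a had 8 and 3 counts in NE libraries and 12 and 13 counts in vehicle libraries. It was tested only because of the vehicle libraries, and its value of -1.34 ± 0.67 (edgeR adjusted p = 0.318) became -0.70 without the second NE library and -2.30 without the first. Rab3d had 12.8 and 15.9 CPM in NE libraries and 16.1 and 17.1 CPM in vehicle libraries (-0.20 ± 0.14, edgeR adjusted p = 0.487). The Rab3d groups narrowly missed each other, and 24.6% of all tested genes had no overlap in this direction. Its value was -0.058 without the first NE library and -0.37 without the second. Rab3b had 39.5 and 39.8 CPM in NE libraries and 47.3 and 33 CPM in vehicle libraries, so the spread within vehicle exceeded the difference between groups (-0.02 ± 0.13). Rab3a was at 0.08 ± 0.16.

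Rab38, of lysosome-related organelles and known for surfactant granules of alveolar type 2 cells, had 22.2 and 26 CPM in NE libraries and 21.8 and 22 CPM in vehicle libraries (log2 fold change 0.14 ± 0.12, edgeR adjusted p = 0.557), and its value was 0.25 without the first NE library and 0.025 without the second. Rab32 and Rab29 were at -0.14 ± 0.16 and -0.05 ± 0.19. Rab23, a brake on Hedgehog signalling, and Rab28, both linked to cilia, were each at 0.07, with an SE of 0.11 and 0.08. Rab40c, an adaptor of ubiquitin ligases, was at -0.06 ± 0.11. Rab17 had a log2 fold change of -0.02 ± 0.69, which its counts do not resolve.

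The values were also set beside abundance and transcript length. Of the 23 members with a mean of at least 50 CPM, a limit chosen after the values were seen, 20 were positive, against 58.2% of the 4770 tested genes at that level, and their values ran from -0.04 to 0.24. All 23 had a 95% interval inside 1.5-fold, and 20 of them inside 1.25-fold. Over all tested genes with a known length, log2 fold change and transcript length had a Spearman's rho of -0.29 (11399 genes, which share the libraries and are not replicates); over the 47 members it was -0.12. With the genes cut into 5 equal groups by length, the shortest 11 members lay in a group whose median over every gene was 0.09, against 0.08 for them. In the group of longest transcripts it was -0.07, against 0.0072 for the 5 members there, which include Rab18, Rab27b and Rab11b. With the length trend of each library removed, 31 of the 47 members were positive, the median was 0.03 and 0 were called, while 6 had an unadjusted p under 0.05, all higher, against 7.68% of all genes in that direction. These 6 were Rab31, Rab11a and Rab8b, as before, and Rab14, Rab18 and Rab27b. In that setting Rab18 was at 0.18 (edgeR adjusted p = 0.167) and Rab31 at 0.25 (adjusted p = 0.124).

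**Figure D4:**
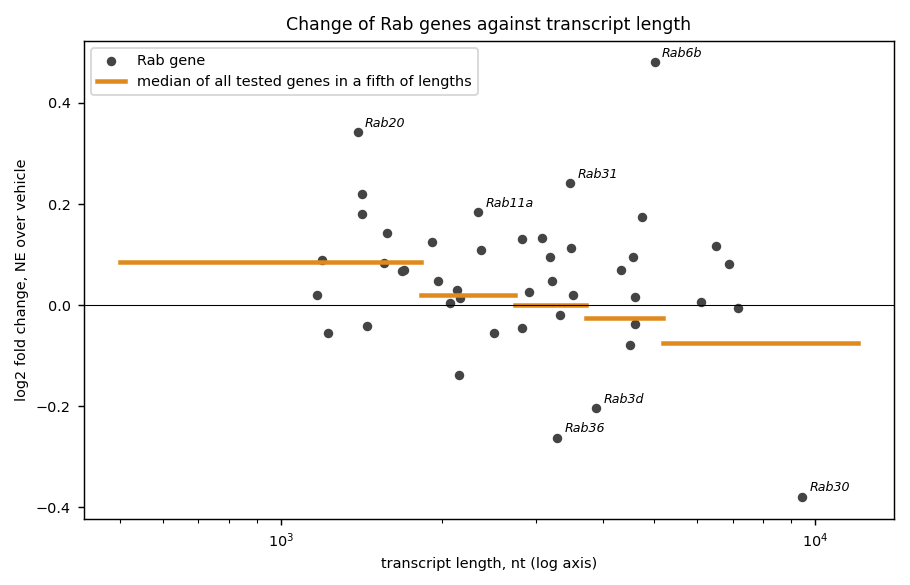
Log2 fold change of NE over vehicle against transcript length in nt (log axis) for the 44 tested Rab genes that reach 2 CPM on average (points). Orange bars give the median of all tested genes in each of 5 groups by length, which runs between 0.09 for the shortest and -0.07 for the longest transcripts; most Rab genes lie within 0.2 of 0.

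Genes that drive the Rab cycle were mostly without calls too. The lists held 181 symbols, of which 178 were in the table and 159 could be tested. Of these, 0 were called higher and 1 lower by edgeR, 8 had an unadjusted p under 0.05 in the higher and 13 in the lower direction, and 69 were positive and 90 negative (median -0.02). Those with an unadjusted p under 0.05 made up 13.2% of the 159, below the 17.3% of all tested genes. Of all tested genes 1.57% were called and 50% were positive. The gene that fell was Bicd2, an adaptor that joins Rab6 vesicles to the motor dynein, with 78 and 71.1 CPM in NE libraries and 100.5 and 88.4 CPM in vehicle libraries. Its log2 fold change was -0.34 ± 0.08 (edgeR adjusted p = 0.0459). Without the second vehicle library its value was -0.43. The call was kept with limma voom (adjusted p = 0.0463) and by edgeR with the replicate block (adjusted p = 0.0212). In edgeR it was also kept with no low-count filter (adjusted p = 0.0294) and with the stricter filter (adjusted p = 0.0434). The call was lost with RLE size factors, with total counts as scaling and against a log2 threshold of 0.2. The DESeq2 test (adjusted p = 0.0915) and removal of the length trend (-0.28, edgeR adjusted p = 0.105) lost it as well. Leaving out the first NE, second NE or first vehicle library lost it too, with adjusted p-values of 0.132, 0.644 and 0.151 and values of -0.41, -0.27 and -0.25.

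Of 52 tested effectors and tethers 16 were positive and 36 negative, with a median of -0.04, 0 at an unadjusted p under 0.05 in the higher and 8 in the lower direction. Among all tested genes 50% were positive, and the shares at that p were 7.48% higher and 9.82% lower. With the length trend removed 25 of the 52 were positive, the median was -0.01, and 2 higher and 6 lower ones had an unadjusted p under 0.05, against 7.68% and 8.41% of all genes. Their median transcript length was 4772.5 nt, against 3193 nt for all tested genes. Golga4 and Golga2, golgin genes whose products are long tethers of the Golgi, were at -0.29 ± 0.09 (edgeR adjusted p = 0.0929) and -0.20 ± 0.07 (adjusted p = 0.15). Bicd1, the relative of Bicd2, was at -0.24 ± 0.08 (edgeR adjusted p = 0.118), with 78.1 and 74.7 CPM in NE libraries and 94.6 and 85.8 CPM in vehicle libraries. With the length trend removed Bicd1 was at -0.14 (adjusted p = 0.368), and without the second vehicle library it was called (-0.31, adjusted p = 0.0248). The groups did not overlap for these 4 genes, as for 24.6% of all tested genes in this direction, whereas the golgin genes Golga5 and Gcc2, named after their values were seen, were at 0.11 and -0.0067 with overlap. Exons of Golga2 overlap the opposite-strand gene Swi5, so its value is uncertain.

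Of 52 tested exchange factor genes 29 were positive, 0 were called by edgeR and 4 higher and 2 lower ones had an unadjusted p under 0.05 (median 0.0084), together 11.5%, against 17.3% of all tested genes. Dennd6b, a DENN-domain gene, had 8.65 and 5.41 CPM in NE libraries and 13 and 11.5 CPM in vehicle libraries (-0.81 ± 0.21, edgeR adjusted p = 0.0558). It passed without the low-count filter, with limma voom, with the replicate block and without 3 of the 4 libraries in turn. Without the second NE library it was at -0.50 (edgeR adjusted p = 0.687); DESeq2 gave no adjusted p. Dennd10 was at 0.33 ± 0.10 (edgeR adjusted p = 0.0833) and Trappc13, a TRAPP subunit gene, at 0.23 ± 0.07 (adjusted p = 0.112). Trappc2, another TRAPP subunit gene, was at 0.37 ± 0.13 (adjusted p = 0.164). Without the second vehicle library Dennd10 was called (0.37, adjusted p = 0.0472). Exons of Dennd10 and Trappc2 overlap opposite-strand genes.

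Of 38 tested GAP genes 18 were positive, 0 were called by edgeR, and 2 higher and 1 lower ones had an unadjusted p under 0.05 (median -0.03), together 7.89%, against 17.3% of all tested genes. Tbc1d12, a TBC-domain gene, was the nearest to a call, with 21.3 and 19.6 CPM in NE libraries and 13.8 and 15.4 CPM in vehicle libraries (0.48 ± 0.13, edgeR adjusted p = 0.0662), and it passed without the low-count filter and without the second vehicle library. Tbc1d8b was at 0.24 ± 0.08 (adjusted p = 0.144), and Tbc1d24 and Tbc1d2b at -0.40 ± 0.18 and -0.19 ± 0.09. Tbc1d8b was at 0.11 without the first vehicle library, and was called without the second (0.39, adjusted p = 0.00138). Tbc1d24 was at -0.67 without the first NE library and at -0.16 without the second. Exons of Tbc1d24 and Tbc1d2b overlap Ntn3 and Adamts7.

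The 9 genes of GDIs, escort proteins and prenylation were all tested, with 3 positive, 6 negative and 0 called by edgeR. An unadjusted p under 0.05 was found for 1 in the higher and 2 in the lower direction, against 17.3% of all tested genes in either direction. Gdi2, a GDI gene, had 396 and 433 CPM in NE libraries and 374 CPM in both vehicle libraries (0.15 ± 0.07, edgeR adjusted p = 0.273). The groups did not overlap, as for 24.6% of all tested genes in this direction. Exons of Gdi2 overlap Fam208b and those of Icmt Rnf207. The methyltransferase gene Icmt, which finishes prenylated tails, was at -0.18 ± 0.08 (edgeR adjusted p = 0.252), and the prenylated Rab acceptor gene Rabac1 at 0.21 ± 0.11 (adjusted p = 0.316). Gdi2 was at 0.084 without the second NE library, Icmt at -0.091 without the first, and Rabac1 at 0.11 with the length trend removed. Of the kinase and phosphatase genes for Rabs, Lrrk2 had 16.5 and 18.4 CPM in NE libraries and 12.3 and 13.3 CPM in vehicle libraries (0.45 ± 0.14, edgeR adjusted p = 0.102), Lrrk1 was at -0.13 ± 0.09, Tbk1 at -0.02 ± 0.07 and the phosphatase gene Ppm1h had 0 counts. Lrrk1 was at 0.041 without the first vehicle library and was called without the second (-0.28, adjusted p = 0.0305), and Tbk1 was at 0.016 without the second NE library. Lrrk2 was called without the second vehicle library (0.51, adjusted p = 0.0491). The 5 tested Rab-like genes lay between -0.14 (Rabl3) and 0.10 (Ift27), with 0 at an unadjusted p under 0.05.

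**Figure D5:**
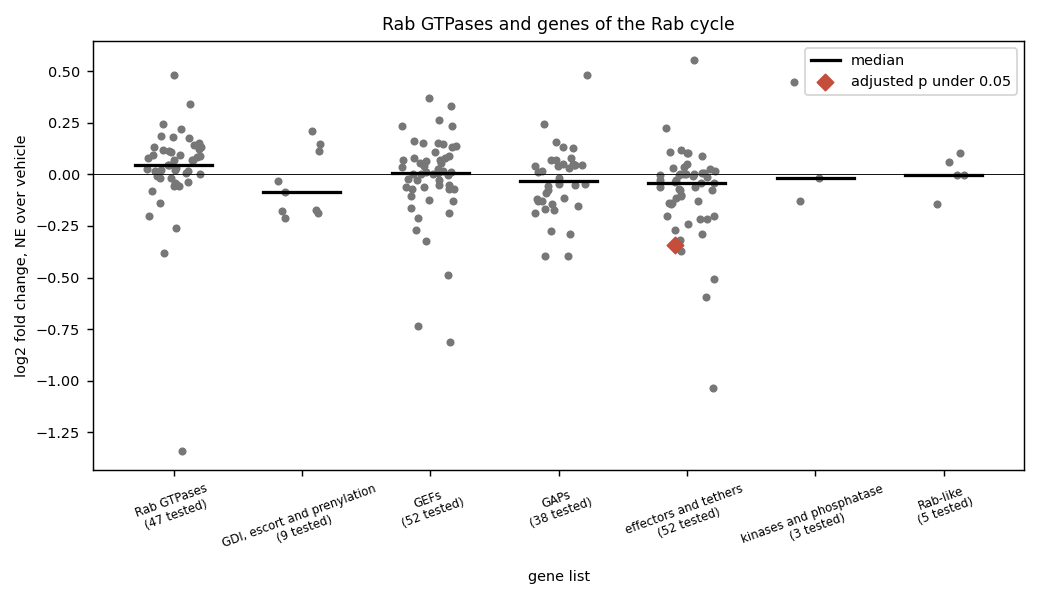
Log2 fold change of NE over vehicle for each tested Rab GTPase gene and for tested genes of the Rab cycle, by list (points), with the median of each list (black bar) and genes with an edgeR adjusted p under 0.05 as a red diamond. Medians lie between -0.09 (GDI, escort and prenylation) and 0.05 (Rab GTPases), and the single diamond is Bicd2.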

How the data were processed

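The table deposited by the authors holds unnormalized counts of reads for each gene and library, per its headers, and genes carry the symbols of that table (30 of 22063 rows, with 0.000742% of the counts, have none). The build is GRCm39 per the submitters' processing notes; an aligner, a counter, an annotation and a strand setting were not given in the sources read. Without strand, overlapping and antisense genes cannot be told apart. Counts were tested with edgeR 4.0.16 (quasi-likelihood, TMM, filterByExpr with minimum count 10 and minimum total 15) in R 4.3.3, with group as the only term and Benjamini-Hochberg adjustment over all genes kept. SE is the log2 fold change over the square root of F. CPM was scaled to each library's TMM-corrected total. Lengths, exon overlaps and shared 50-base stretches come from GENCODE M21, and promoters from RefSeq, both on GRCm38.

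Alternatives were DESeq2 1.42.0, limma voom 3.58.1, other scalings and filters, glmTreat, a replicate block, each library left out, and removal of each library's length trend (loess). Counts of 11347 genes with known changes were also simulated. In them edgeR called 36.7% of genes changed 1.25-fold, 66% at 1.5-fold, 80% at 2-fold and 98% at 4-fold, with 3 false among 143 calls. The simulated spread between libraries depended on abundance alone, with no length trend and no library that stood apart. These rates are for such counts and need not hold for the real libraries. Replicates were not duplicates: chi-square divided by its degrees of freedom came to 4.06 for the NE pair and 5.71 for the vehicle pair, against 5.41 to 11.5 for pairs across groups, so the vehicle pair differed more than the closest pair of an NE and a vehicle library. The limit that a count of 0 allows covers counting error only. The members and the lists were chosen with earlier results of these data known. Values per library are given for the 12 members with the smallest p-values, the 8 highest per kb and 13 chosen for their roles, and for up to 4 genes of each list (1 gene is not reported here); further members named with values were chosen after these were seen.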

Additional observations from a re-analysis of the deposited data

How the results depend on the processing

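Called genes were 39 higher and 140 lower in NE over all genes. They became 84 and 225 with no low-count filter, 24 and 51 with DESeq2, 4 and 29 with the length trend removed, and 1 and 15 against a log2 threshold of 0.2. Total counts as scaling gave 12 and 120, and leaving out a library gave 2 to 312 higher and 2 to 428 lower. With the replicate block it was 84 and 236; the numbers are not stated to mark a shared batch, and same-numbered deviations had an r of -0.06. The block changed no call of a Rab gene.

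Called Rab genes were 0 in every setting but one, with 0 to 1 when a library was left out. Their median log2 fold change (0.05) was 0.029 with total counts, 0.066 with the stricter filter or limma voom, and 0.025 to 0.078 without a library. Called Rab cycle genes (1) were 0 with RLE size factors, total counts, DESeq2, the length trend removed or the threshold of 0.2, 2 with limma voom or the replicate block, 3 with no filter, and 0 to 8 without a library (0 without the second NE, 8 without the second vehicle library). The summed Rab difference was 169 CPM with the TMM-scaled total, against 123 CPM.

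Of the 22 tested Rab genes with values per library by rule, 272 recomputed values kept their direction and side of the threshold, 1 became a call (Rab31) and 11 changed sign, in Rab7, Rab2a, Rab10 and Rab17. Rab7 (0.01) was at -0.0037 with total counts, -0.010 with the length trend removed, and -0.010 to 0.041 without a library (-0.0093 without the second NE library). Rab2a ran between -0.0025 and 0.066 and Rab10 between -0.018 and 0.063 without a library. Rab17 (-0.02) was at 0.0038 with DESeq2, 0.10 with limma voom, 0.057 with the block, and -0.62 to 1.05 without a library (0.42 without the second NE library). The cause was not tested. Depth limits members under 10 CPM, of which there were 9 among those tested. With 2 libraries a group, missing a threshold does not show that a gene did not differ.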

Other observations

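Several Rab genes differed between the 2 vehicle libraries by more than between the groups. Rab3b had 704 and 491 counts in vehicle libraries of nearly the same total, and 616 and 728 in NE libraries. Rab36 had 63 and 44 counts in NE libraries and 42 and 72 counts in vehicle libraries. Rab9 had 34 and 42.7 CPM in NE libraries and 40.1 and 38.9 CPM in vehicle libraries, so here the NE libraries were the ones apart. The slope of log2 CPM on the log2 of transcript length was 0.26 and 0.22 in NE libraries and 0.30 in both vehicle libraries.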
